A study of Mus musculus with 19 samples.

Results

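Whole ovaries of newborn CD-1 mice at postnatal day (pnd) 2, an age at which oocytes become enclosed in follicles, were set against whole ovaries of fetuses at gestation day (gd) 14, an age at which germ cells enter meiosis. The comparison was defined by array titles: it takes the 3 arrays titled pnd2 ovary and the 3 titled gd14, 6 of the 19 arrays of the series, of which 18 held ovary at 6 stages. Mice of both groups were described as wild-type females of the outbred CD-1 strain from timed matings. For neither group do the labels name a transgene or agent. The labels number the pnd2 samples 1, 2 and 3 and the gd14 samples 10, 11 and 12, and values of single arrays are given in that order throughout. By the labels the pnd2 samples were not pooled and the gd14 samples were pools of 3, but the series' own text counts 1 animal, with a dam of its own, for each of these samples. Pool status and stage cannot be told apart in this comparison. Total RNA was amplified in 2 rounds and hybridized to Affymetrix Mouse430_2 arrays, and the deposited values are signal intensities per probe set.

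In the fetal mouse ovary germ cells stop dividing and enter meiosis under retinoic acid and BMP signals, with Stra8 as the factor that starts the meiotic programme. They break, pair and exchange their chromosomes along a protein axis, the synaptonemal complex, and come to rest around birth at the end of the first meiotic prophase. The germ cell nests then come apart, flattened pregranulosa cells enclose single oocytes as primordial follicles, and oocyte transcription factors such as Nobox, Figla and Lhx8 switch on genes of the zona pellucida, the coat of the egg, and proteins stored for the embryo.

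The arrays within a stage resembled each other more than those of the other stage, with a mean correlation over tested probe sets of 0.9657 to 0.9729 among pnd2 arrays and 0.9717 to 0.976 among gd14 arrays, against 0.8883 to 0.9004 between the stages. The 3' to 5' signal ratio of Gapdh, a sign of RNA quality, was 5.07 to 5.41 on pnd2 arrays and 4.09 to 4.96 on gd14 arrays, without overlap. The same ratio of beta-actin was 2.08 to 3.36 on pnd2 arrays and 2.43 to 2.83 on gd14 arrays, with overlap. The part of RNA quality in the results below was not tested. Signals of Xist, expressed from the inactive X chromosome of females, were 11306, 12886 and 13818 on the pnd2 arrays, against 13825, 12780.1 and 11748 on the gd14 arrays, and those groups overlapped.

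The 2 stages differed in many genes. limma, fitted to all 18 ovary arrays on log2(signal + 31), called 4153 of 12592 genes (33%) at a Benjamini-Hochberg adjusted p under 0.05, of which 2250 (17.9% of those tested) were higher at pnd2 and 1903 (15.1%) lower. On the level of probe sets 7889 of 26431 (29.8%) were called, 3840 (14.5%) higher and 4049 (15.3%) lower. Log2 changes below are pnd2 minus gd14 on that scale, ± SE of the fit, and the median change over all tested genes was 0.01. The 2 directions differed in size: 302 of the higher genes and 100 of the lower ones changed by at least 2 on the log2 scale, and 53 against 15 by at least 4. For 5981 genes (47.5%) the pnd2 and gd14 arrays did not overlap.

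**Figure D1:**
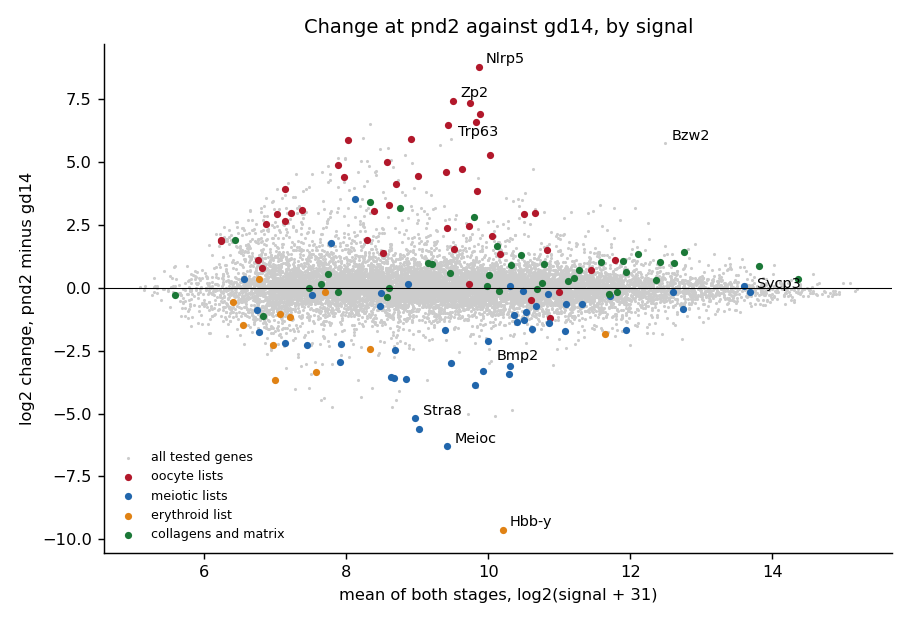
Log2 change of each tested gene at pnd2 against gd14 (vertical axis) by its mean log2(signal + 31) over both stages (horizontal axis), with members of the oocyte, meiotic, erythroid and matrix lists in colour and all other tested genes in grey. The largest rise was that of Nlrp5 (8.78) and the largest fall that of Hbb-y (-9.62), and Sycp3 lay near 0.

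The 12 largest rises included genes of proteins stored in the egg and of its coat. Nlrp5, a component of the subcortical maternal complex of the egg, had signals of 20627, 20367 and 17103 on the pnd2 arrays, against 24.1, 8.30 and 8.37 on the gd14 arrays (log2 change 8.78 ± 0.32, adjusted p = 1.62e-12). It was among the brightest genes at pnd2 and among the dimmest, below 31, at gd14. Zp2, a zona pellucida glycoprotein that sperm bind, had signals of 11298, 9131 and 7939 on the pnd2 arrays, against 15.6, 22.6 and 33.7 on the gd14 arrays (7.43 ± 0.33, adjusted p = 2.18e-11). Of the other 10 largest rises, Nlrp4f (7.34), Nlrp14 (6.59) and Nlrp4b (5.88) belong to the same family of NLR proteins as Nlrp5. Padi6 (6.93), a peptidylarginine deiminase of egg cytoplasmic lattices, Zp3 (6.47), another zona glycoprotein, and Btg4 (5.90), an adaptor for the removal of maternal mRNA, also act in the oocyte or early embryo. Dcpp1 (6.52), annotated as a demilune cell and parotid protein, and Oas1e (5.95), of the oligoadenylate synthetase family, complete the group with Trp63 and Bzw2.

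Trp63, the p53 family member that guards the genome of resting oocytes, had signals of 6008, 4946 and 5447 on the pnd2 arrays, against 76.1, 50.2 and 55.8 on the gd14 arrays (5.91 ± 0.26). Bzw2, a regulator of start codon choice in translation, had signals of 34331, 37669 and 41747 on the pnd2 arrays, against 1656, 394 and 448 on the gd14 arrays (5.76 ± 0.38). Of the 12 genes it was the one above the median signal of 116.05 on all 3 gd14 arrays, and gd14 array 10 lay above the other gd14 arrays by a factor of over 3. The stage means of Bzw2 were 18862 at gd16 and 33257 at gd18. Its other probe sets did not show this rise: of 3 tested for Bzw2 1 was called higher, the changes ran from -0.51 to 5.76, and their mean gave 1.66.

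In the same ranking, without genes of a clone or predicted name, the largest fall was not that of a germ cell gene. Hbb-y, an embryonic beta-like globin of primitive red cells, had signals of 2.10, 18.0 and 13.8 on the pnd2 arrays, against 32142, 34331 and 31771 on the gd14 arrays (-9.62 ± 0.26, adjusted p = 1.51e-14), the largest change among the ranked genes. The 11 next largest falls of that ranking were those of Meioc, Tex101, Stra8, Rhox13, Ugt8a, Taf7l, Dmrtc2, Rhox9, Sox2, Tex16 and Rhox6, with log2 changes of -6.30 to -4.37. Ugt8a, an enzyme of galactolipid synthesis, had signals of 168, 83.2 and 107 on the pnd2 arrays, against 5234, 3881 and 4927 on the gd14 arrays (-5.00 ± 0.28). Taf7l, a germ cell variant of a subunit of the general transcription factor TFIID, had signals of 116, 180.3 and 354 on the pnd2 arrays, against 7594, 6715 and 5813 on the gd14 arrays (-4.87 ± 0.39), and Dmrtc2, a DM-domain gene of germ cells, fell (-4.72). Tex101, a germ cell surface glycoprotein, fell (-5.60), as did the X-linked Tex16 (-4.44).

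Genes listed for meiotic entry, a list that also takes in meiotic cohesin, were lower at pnd2. Of the 12 tested genes of the meiotic entry list 8 were lower and none higher, against 15.1% lower and 17.9% higher among all tested genes, and the median change of the list was -1.69. Stra8 had signals of 34.8, 82.8 and 39.8 on the pnd2 arrays, against 2189, 3199.7 and 3583 on the gd14 arrays (-5.19 ± 0.47, adjusted p = 1.75e-07). Meioc, which holds germ cells in the meiotic programme together with Ythdc2, had signals of 21.6, 26.4 and 98.4 on the pnd2 arrays, against 6957, 4555 and 5921 on the gd14 arrays (-6.30 ± 0.43, adjusted p = 5.70e-09). On all 3 pnd2 arrays both genes lay below 116.05, the median of all values, and on all 3 gd14 arrays far above it. In whole tissue fewer cells of a type and less RNA per cell cannot be told apart, for these genes and for all that follow.

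Of the meiosis-specific cohesin subunits Rec8 and Stag3 fell and Smc1b did not pass the test. Rec8, which holds sister chromatids together along the meiotic axis, had signals of 69.0, 78.0 and 105 on the pnd2 arrays, against 911, 1339 and 1763 on the gd14 arrays (-3.54 ± 0.41), and Stag3, its partner in the cohesin ring, 304, 351 and 397 on the pnd2 arrays, against 4543, 3793 and 3996 on the gd14 arrays (-3.44 ± 0.26). Neither gene overlapped between the stages. Smc1b, the meiotic cohesin subunit that keeps chromatids together in resting oocytes, was 1962, 1536 and 2549.8 on the pnd2 arrays, against 3218, 2787 and 3421 on the gd14 arrays and did not pass the test (-0.66 ± 0.43, adjusted p = 0.275). The RNA helicase Ythdc2 fell (-1.08).

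Genes of the chromosome axis and of synapsis were lower more often than those of any other list with over 5 tested members: 14 of 16 were called lower and 1 higher, with a median of -1.69. Those that fell by 3 or more on the log2 scale came from several parts of the complex. Tex12, of the central element, had signals of 420.3, 337 and 438 on the pnd2 arrays, against 4148, 3406 and 3482 on the gd14 arrays (-3.11 ± 0.24); Majin, which ties telomeres to the nuclear envelope, 83.8, 114 and 62.6 on the pnd2 arrays, against 1759, 1260.1 and 1094 on the gd14 arrays (-3.57 ± 0.30); and 4930447C04Rik, the central element gene also called Six6os1, 266, 94.6 and 276 on the pnd2 arrays, against 4158, 2493 and 3284 on the gd14 arrays (-3.86 ± 0.33). Sycp2, of the axial element, fell (-3.30), as did Hormad1 (-3.01), the axis protein that is stripped on synapsis. In all of these genes every gd14 array was above every pnd2 array.

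Members of the same complex differed in the size of their change. Sycp1, the transverse filament that joins paired chromosomes, had signals of 712, 902 and 1001 on the pnd2 arrays, against 3599, 1473 and 1843 on the gd14 arrays and a change of -1.28 ± 0.32 (adjusted p = 0.00499), without overlap and with gd14 array 10 well above the other gd14 arrays. Sycp3, of the axial element, had signals of 12565, 8735 and 15993 on the pnd2 arrays, against 16380.1, 10931 and 13893 on the gd14 arrays: the groups overlapped and the change of -0.17 ± 0.33 did not pass the test (adjusted p = 0.748). Sycp2l, an oocyte paralogue of Sycp2 that localizes to centromeres, was the member called higher, with signals of 972, 824 and 926 on the pnd2 arrays, against 40.0, 74.2 and 40.4 on the gd14 arrays (3.53 ± 0.49, adjusted p = 2.82e-05). Whether these changes differ between the genes was not tested.

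Of 19 tested genes of meiotic recombination 10 were lower and 1 was higher, with a median of -0.72. Dmc1, the recombinase that pairs broken ends with the homologous chromosome, had signals of 84.1, 121 and 94.2 on the pnd2 arrays, against 1742, 1405 and 1536 on the gd14 arrays (-3.61 ± 0.26), and Spo11, the nuclease that makes the breaks, 15.9, 64.6 and 87.5 on the pnd2 arrays, against 969, 402 and 523 on the gd14 arrays (-2.94 ± 0.33). Both were high at gd14 and near the low values at pnd2. Meiob (-2.49), a single-strand DNA binding protein of meiosis, Mei1 (-2.28), needed for break formation, and Prdm9 (-2.23), the histone methyltransferase that places the breaks, fell too. Mnd1, which assists Dmc1, went the other way with signals of 270.0, 375 and 464 on the pnd2 arrays, against 46.1, 125 and 96.6 on the gd14 arrays (1.76 ± 0.30). Tex15, needed for the repair of meiotic breaks in mouse spermatocytes, was 5383, 4434 and 7748 on the pnd2 arrays, against 7104, 5492 and 6831 on the gd14 arrays and did not pass the test (-0.17 ± 0.28, adjusted p = 0.684).

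Over the lists of entry, synapsis and recombination, 31 of 46 tested genes were lower, 2 were higher and 13 were not called, and the median change was -1.38. The 31 lower genes had adjusted p values of 5.70e-09 to 0.0285. On pnd2 arrays 11 of these 31 had a mean below the median of all values, so that 20 were still above it. Those 11 passed the signal filter through another stage, and such genes could hardly be called higher. The largest of the 3 steps between neighbouring stages was that from gd14 to gd16 for 15 of the 31, from gd16 to gd18 for 1 and from gd18 to pnd2 for 15, against 40.9%, 16.1% and 42.9% of all genes called lower. Stra8 belonged to the first kind, with means of 70.1 at gd16 and 56.4 at gd18. Sycp1 belonged to the last kind, with means of 3666 at gd16 and 3825 at gd18, above its gd14 mean of 2305. The stage mean of Xist dipped at gd16: on the log2 scale it was 13.64 at gd14, 11.33 at gd16 and 13.87 at gd18. The step counts here and below use all gd16 arrays and were not recomputed without any of them. How far these counts depend on a single gd16 array was not tested.

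**Figure D2:**
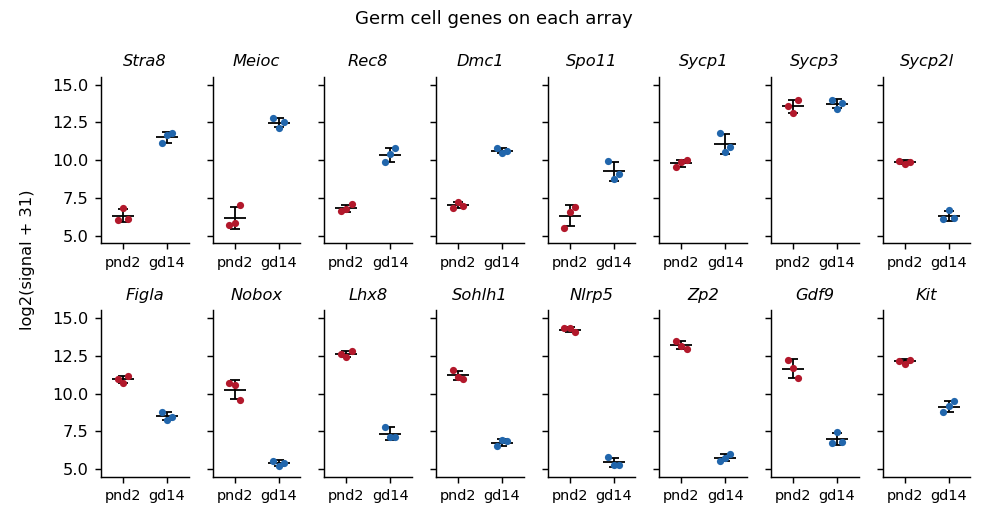
Log2(signal + 31) of 16 germ cell genes on each pnd2 array (red, left) and each gd14 array (blue, right), with the mean and SD of the 3 arrays of a stage as bars. Meiotic genes (upper row) were lower at pnd2 except Sycp3, whose arrays overlapped, and Sycp2l, which was higher; the oocyte genes of the lower row were higher on every pnd2 array than on any gd14 array.

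Transcription factors of the oocyte rose at pnd2, 7 of 9 tested genes against 17.9% of all tested genes, with a median change of 2.08. Lhx8, a LIM homeobox factor needed for primordial follicles, had signals of 6258, 5464 and 7359 on the pnd2 arrays, against 196, 106 and 110.3 on the gd14 arrays (5.27 ± 0.35). Nobox, a homeobox factor of oocytes, had signals of 1617, 1493 and 720.4 on the pnd2 arrays, against 16.6, 5.75 and 11.4 on the gd14 arrays (4.88 ± 0.51) and Sohlh1, a germ cell basic helix-loop-helix factor, 2970.1, 2185 and 2013 on the pnd2 arrays, against 60.5, 89.0 and 85.2 on the gd14 arrays (4.46 ± 0.30). Figla, the basic helix-loop-helix activator of zona genes, was above the median of all values on every gd14 array, with signals of 1948, 1614 and 2281 on the pnd2 arrays, against 403, 273 and 326 on the gd14 arrays (2.44 ± 0.33). No array of one stage reached those of the other in these 4 genes. Taf4b, a gonadal TFIID subunit, was the member that fell, with signals of 1282, 898 and 1438 on the pnd2 arrays, against 3195, 2451 and 2698 on the gd14 arrays (-1.20 ± 0.24). Sohlh2, the partner of Sohlh1, was 1434, 1493 and 918 on the pnd2 arrays, against 1371, 2111 and 1899 on the gd14 arrays and did not pass the test (-0.48 ± 0.27).

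Genes of the zona pellucida and of other oocyte surface and secreted proteins rose in 12 of 14 tested cases, and none fell (median 2.98). Zp3 had signals of 9389, 5042 and 5275 on the pnd2 arrays, against 37.1, 47.9 and 36.8 on the gd14 arrays (6.47 ± 0.31) and Zp1, which links zona filaments, 3280.3, 2337 and 968 on the pnd2 arrays, against 61.4, 5.60 and 36.3 on the gd14 arrays (5.02 ± 0.43). Gdf9, the growth factor by which oocytes act on granulosa cells, had signals of 4847, 3229 and 2050.2 on the pnd2 arrays, against 77.9, 146 and 83.0 on the gd14 arrays (4.63 ± 0.27). In Zp1 and Gdf9 pnd2 array 1 was the highest and pnd2 array 3 the lowest, by a factor of over 2. Bmp15, the other oocyte growth factor of that family, did not reach the signal filter and was not tested, with signals of 147, 123 and 66.4 on the pnd2 arrays, against 24.9, 11.3 and 9.17 on the gd14 arrays. The receptor tyrosine kinase Kit, through which oocytes receive Kit ligand, had signals of 4578, 4031 and 4789 on the pnd2 arrays, against 408, 537 and 698 on the gd14 arrays (2.98 ± 0.20), and Gja4, the connexin of oocyte and granulosa cell junctions, rose by 2.36 ± 0.27.

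Of 22 tested maternal-effect and late oocyte genes 20 rose and none fell, with a median of 3.56, the highest among the lists. Members dim at gd14 could pass the signal filter through their pnd2 signal, and such members could hardly fall. Ooep, a scaffold of the subcortical maternal complex, had signals of 5175, 3544 and 3574 on the pnd2 arrays, against 138, 100.8 and 126 on the gd14 arrays (4.74 ± 0.24). Its partners in that complex moved the same way, Tle6 by 2.93 ± 0.22 and Khdc3 by 4.15 ± 0.26. Padi6 had signals of 13106, 10044 and 7771 on the pnd2 arrays, against 28.1, 65.5 and 69.9 on the gd14 arrays (6.93 ± 0.31). Zar1, needed for the start of embryonic development, rose by 3.28 ± 0.31, and Bcl2l10, a BCL2 family member of oocytes, by 4.42 ± 0.39. Members of the Nlrp4 and Nlrp9 families and of Oosp are close in sequence, and signals of such genes can be shared between their probe sets.

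The 3 oocyte lists together held 45 tested genes, of which 39 rose, 1 fell and 5 were not called, with a median change of 2.98. At gd14 14 of the 39 had a mean below 31 and 24 a mean below 116.05, and for these the size of the log2 change depends on the pseudocount. None of the 39 had a pnd2 mean below 116.05. Genes dim at every earlier stage were tested only through their pnd2 signal, so the counts and medians of these lists are no test of a rise. The largest step was that from gd18 to pnd2 for 26 of the 39, from gd16 to gd18 for 9 and from gd14 to gd16 for 4. Of all genes called higher 49.3% had it after gd18. Among the 7 transcription factors that rose none had its largest step after gd18, whereas 17 of the 20 maternal-effect genes and 9 of the 12 zona and surface genes did. Lhx8 averaged 983 at gd16 and 5248 at gd18, and Zp3 35.5 and 116.

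**Figure D3:**
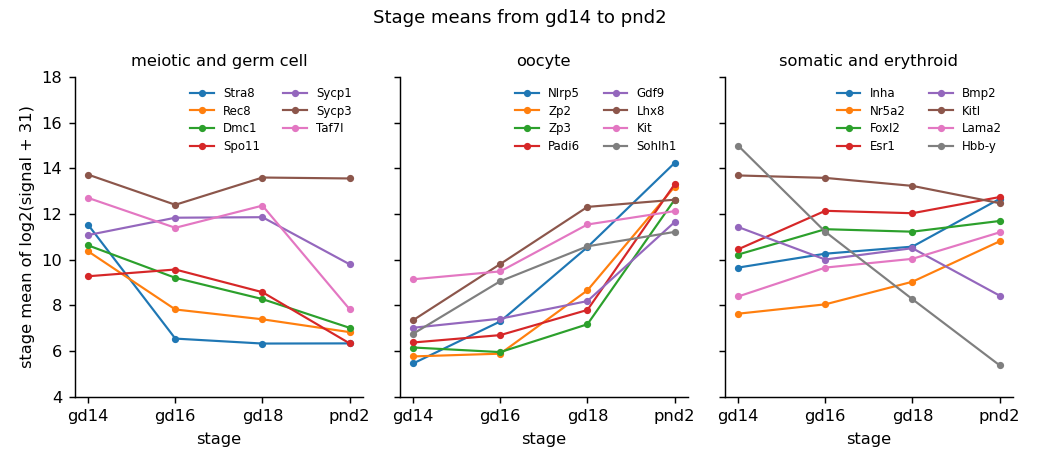
Stage means of log2(signal + 31) at gd14, gd16, gd18 and pnd2 (3 arrays each) for 7 meiotic or germ cell genes, 8 oocyte genes and 8 somatic or erythroid genes. Stra8 was down by gd16 while the large falls of Sycp1 and Taf7l came between gd18 and pnd2, and Lhx8 and Sohlh1 rose before gd18 while Zp2, Zp3 and Gdf9 rose mainly after it.

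Promoters of 4 genes, of which 2 rose and 2 fell, are shown as examples that were picked by hand and not by a rule. Figla and Sohlh1 belong to the factors that bind E-boxes, Nobox and Lhx8 to those that bind homeobox cores. RefSeq promoters (build GRCm38.p6, 250 bases before to 50 after the start, 300 in all) were matched for 32 of the 39 oocyte genes that rose and for 25 of the 31 meiotic genes that fell. The searched motifs were the E-box CANNTG and, within it, CAGGTG and CACGTG, the TATA box TATAAA, the homeobox core TAATTG and the E2F-like GCGGGAA, on both strands. The motifs were chosen with these promoters in view. On either strand, both examples that rose held CAGGTG and both that fell held GCGGGAA, so the 4 genes differ more clearly than their sets. In the oocyte and meiotic sets a gene counted if any of its promoters held the motif, whereas the share of all was taken over single promoters. The set percentages are therefore not in the same unit as those of all promoters and can exceed them for that reason. CAGGTG stood in 17 of the 32 oocyte genes (53.1%), in 8 of the 25 meiotic genes (32%) and in 20.2% of all 32851 promoters. GCGGGAA stood in 2 oocyte genes (6.25%), in 8 meiotic genes (32%) and in 4.6% of all promoters. CACGTG stood in 12.5% of the oocyte genes, 24% of the meiotic ones and 7.15% of all promoters. The general CANNTG stood in 90.6%, 84% and 72.3%, TATAAA in 9.38%, 12% and 13.6%, and TAATTG in 12.5%, 4% and 8%, in the same order. A match is a description of the letters and not a bound site. Below, each promoter runs 5' to 3' on the strand of its gene, with the E-box forms CAGGTG and CACGTG and the E2F-like motif, or their reverse complements, in capitals. Zp3 (chr5:135979855-135980154, plus strand) and Padi6 (chr4:140742594-140742893, minus strand) rose, and Stag3 (chr5:138280259-138280558, plus strand) and Meioc (chr11:102665335-102665634, plus strand) fell.
Zp3: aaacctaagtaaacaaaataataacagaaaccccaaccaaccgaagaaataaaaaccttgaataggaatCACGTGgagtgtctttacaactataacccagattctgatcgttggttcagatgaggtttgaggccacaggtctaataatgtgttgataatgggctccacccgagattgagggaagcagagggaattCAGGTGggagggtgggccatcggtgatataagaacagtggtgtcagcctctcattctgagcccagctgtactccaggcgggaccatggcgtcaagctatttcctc
Padi6: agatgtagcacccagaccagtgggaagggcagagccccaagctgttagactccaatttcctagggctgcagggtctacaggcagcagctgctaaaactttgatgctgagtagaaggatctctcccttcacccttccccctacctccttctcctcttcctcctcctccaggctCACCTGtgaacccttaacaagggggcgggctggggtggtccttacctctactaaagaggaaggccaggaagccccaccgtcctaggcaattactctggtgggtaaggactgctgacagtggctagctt
Stag3: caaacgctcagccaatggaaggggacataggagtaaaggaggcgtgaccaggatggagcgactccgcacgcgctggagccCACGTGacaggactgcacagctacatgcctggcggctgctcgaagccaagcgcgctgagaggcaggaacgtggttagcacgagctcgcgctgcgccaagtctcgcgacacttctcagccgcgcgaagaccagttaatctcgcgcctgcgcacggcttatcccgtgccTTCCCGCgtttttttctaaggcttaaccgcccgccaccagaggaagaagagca
Meioc: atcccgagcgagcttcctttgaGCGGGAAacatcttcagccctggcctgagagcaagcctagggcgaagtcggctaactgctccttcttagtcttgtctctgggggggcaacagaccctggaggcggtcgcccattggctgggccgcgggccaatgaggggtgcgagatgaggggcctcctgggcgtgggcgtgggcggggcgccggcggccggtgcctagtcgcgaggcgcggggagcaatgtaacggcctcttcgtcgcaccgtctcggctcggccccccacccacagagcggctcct
In these 4 windows the matches of the oocyte genes began 55 and 181 bases before the start of Zp3 and 78 bases before that of Padi6, and those of the meiotic genes 3 and 170 bases before the start of Stag3 and 228 before that of Meioc.

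Genes of germ cell identity and of the piRNA pathway, which silences transposons, split: of 22 tested genes 10 fell and 6 rose (median -0.45). Dazl, a translational regulator of germ cells, had signals of 3360.4, 2316 and 3112 on the pnd2 arrays, against 8934, 10329 and 11854 on the gd14 arrays (-1.82 ± 0.40), and the RNA helicase Ddx4 3403, 2658 and 2357 on the pnd2 arrays, against 7258, 7432 and 9912 on the gd14 arrays (-1.54 ± 0.38). Dazl and Ddx4 were thus lower on every pnd2 array, while most of the oocyte genes above were higher. Of the other germ cell markers of the panel, Taf7l fell (-4.87) and Mael was not called (-0.15). Rnf17, a tudor protein of germ cells, fell (-2.57), with its 4 tested probe sets from -2.57 to -0.43, as did the mitochondrial protein Gpat2 (-2.03). Tdrd9, a piRNA helicase, had signals of 5809, 5394 and 3202 on the pnd2 arrays, against 401, 383 and 385 on the gd14 arrays (3.48 ± 0.24). Gtsf1, a zinc finger partner of PIWI proteins, rose by 3.18 ± 0.39, Tdrd5 by 2.37 ± 0.26 and Piwil2, a PIWI protein, by 1.36 ± 0.26.

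In the list for pluripotency and primordial germ cells 4 of 22 tested genes fell and 3 rose, counts near the shares of all tested genes (15.1% and 17.9%), and the median was -0.11. Sox2, a pluripotency factor, had signals of 5.29, 13.5 and 14.2 on the pnd2 arrays, against 602, 1007 and 1123 on the gd14 arrays (-4.45 ± 0.60). Prdm14, a regulator of primordial germ cells, fell (-2.23) and the pluripotency cofactor Utf1 (-1.78). Dppa3, kept by oocytes for the protection of the maternal genome, had signals of 5809, 4028 and 3836 on the pnd2 arrays, against 262, 329 and 537 on the gd14 arrays (3.53 ± 0.33), and Tcl1, a coactivator of AKT, rose by 4.38 ± 0.26. Pou5f1, the factor also called Oct4, was 341, 263 and 254 on the pnd2 arrays, against 126, 235 and 276 on the gd14 arrays, overlapped between the stages and did not pass the test (0.43 ± 0.33, adjusted p = 0.358). Between these stages its means were 95.7 at gd16 and 50.4 at gd18. Lin28a, an RNA-binding protein of the same cells, was 1305, 1187 and 729 on the pnd2 arrays, against 360.0, 1103 and 1170.4 on the gd14 arrays (0.41 ± 0.38, adjusted p = 0.464), with means of 61.7 and 117 at those stages.

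X-linked reproductive homeobox genes of the Rhox cluster were lower in 4 of 4 tested cases (median -4.55), and the other 7 of the list had no probe set annotated to them alone here. Rhox9 had signals of 43.2, 42.4 and 50.3 on the pnd2 arrays, against 1440.3, 2699 and 1984 on the gd14 arrays (-4.72 ± 0.26), and Rhox5, expressed in gonadal and placental cells of the mouse, 199, 216 and 167 on the pnd2 arrays, against 2087, 4092 and 4823 on the gd14 arrays (-3.96 ± 0.23). Rhox6 fell (-4.37) and Rhox13 (-5.12). In each, every gd14 array lay above every pnd2 array.

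The granulosa lineage held rises and falls: of 25 tested genes 10 rose and 4 fell (median 0.30). Inha, the inhibin alpha subunit that granulosa cells secrete, had signals of 6174, 6667 and 6580.3 on the pnd2 arrays, against 659.8, 811 and 876 on the gd14 arrays (3.01 ± 0.19). Nr5a2, a nuclear receptor of granulosa cells, had signals of 1342, 1781 and 2282 on the pnd2 arrays, against 187, 191 and 133 on the gd14 arrays (3.17 ± 0.25), and Foxl2, the forkhead factor that keeps granulosa cell identity, 3113, 3219 and 3568 on the pnd2 arrays, against 1309.8, 1325 and 921 on the gd14 arrays (1.47 ± 0.23). Every pnd2 array exceeded every gd14 array in these genes. Slc18a2, a vesicular monoamine transporter, rose by 4.29 ± 0.33, the estrogen receptor Esr1 by 2.29 ± 0.29 and Esr2 by 1.81 ± 0.36.

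Other members of the list fell. Bmp2, a BMP ligand, had signals of 251, 201 and 599 on the pnd2 arrays, against 3031, 2577 and 2634 on the gd14 arrays (-3.00 ± 0.38). Kitl, the ligand of Kit, had signals of 5929, 4893 and 6336 on the pnd2 arrays, against 11891, 14158 and 13725 on the gd14 arrays (-1.21 ± 0.19), opposite in direction to its receptor. Lgr5, a receptor for R-spondins that marks cortical pregranulosa cells, was 695, 770.0 and 1010.4 on the pnd2 arrays, against 1296, 1546 and 1729.6 on the gd14 arrays (-0.87 ± 0.24). Fst, the activin-binding protein follistatin, was lower at an adjusted p of 0.0474 (-0.83 ± 0.31), and its call was lost in 10 of the alternatives. Amh, the hormone of growing follicles, was at or below 14.6 on all 6 arrays and was not tested. Without pnd2 array 1, 2 of the list in place of 4 were called lower.

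**Figure D4:**
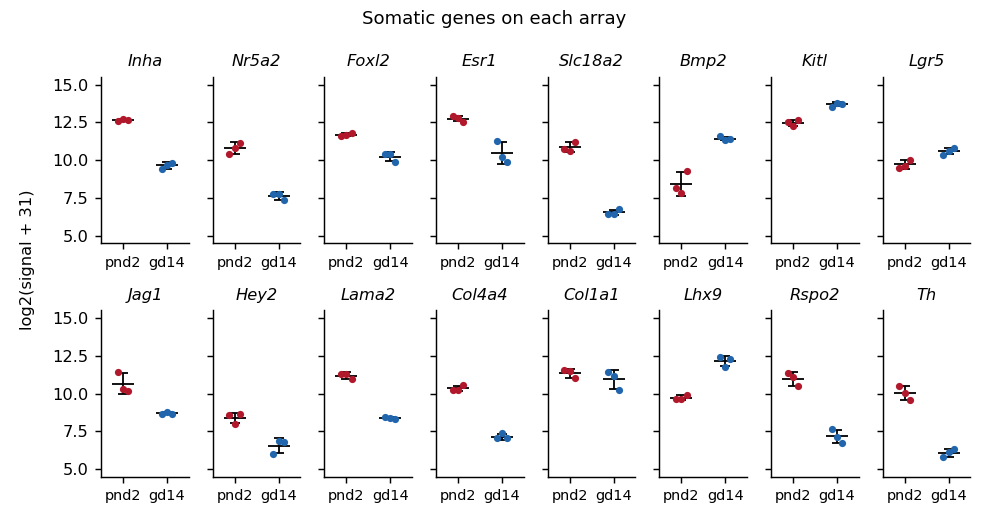
Log2(signal + 31) of 16 somatic genes on each pnd2 array (red, left) and each gd14 array (blue, right), with the mean and SD of the 3 arrays of a stage as bars. Inha, Nr5a2, Slc18a2, Lama2, Col4a4, Rspo2 and Th were higher on every pnd2 array, Bmp2, Kitl, Lgr5 and Lhx9 were lower, and the arrays of Col1a1 overlapped.

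Of 23 tested genes of the Wnt pathway 10 fell and 1 rose (median -0.43). Rspo2, an R-spondin that enhances Wnt signals, was the member that rose, with signals of 2631, 2167 and 1397 on the pnd2 arrays, against 169, 107 and 78.0 on the gd14 arrays (3.82 ± 0.29). Rspo3, of the same family, had signals of 63.9, 86.2 and 25.1 on the pnd2 arrays, against 362, 373 and 160.3 on the gd14 arrays and fell (-1.87 ± 0.45). Lef1, a transcription factor that Wnt signals use, had signals of 267, 170.4 and 266 on the pnd2 arrays, against 858, 719 and 824 on the gd14 arrays (-1.67 ± 0.18), and the secreted inhibitor Wif1 (-1.33) and the ligand Wnt5a (-1.12) fell. The fall of Ctnnb1, which encodes beta-catenin, was -0.22 ± 0.08, with overlap between the stages, and its call was lost in 9 of the alternatives. Without pnd2 array 1, 6 genes were called lower in place of 10.

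Of 17 tested genes of the Notch pathway, which oocytes and pregranulosa cells use as nests break down, 7 rose and none fell (median 0.32). The ligand Jag1 had signals of 2758, 1233 and 1152 on the pnd2 arrays, against 381, 404 and 379 on the gd14 arrays (1.94 ± 0.33) and the ligand Jag2 1197, 1178 and 753 on the pnd2 arrays, against 196, 431 and 295 on the gd14 arrays (1.70 ± 0.30). The target genes Hey2 (1.85) and Heyl (1.52) rose. Notch2, the receptor of granulosa cells, was 3946, 4109 and 3882 on the pnd2 arrays, against 3522, 3376 and 3586 on the gd14 arrays: its arrays did not overlap, but the change of 0.19 ± 0.15 did not pass the test (adjusted p = 0.396).

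In the BMP pathway 6 of 21 tested genes fell (28.6%, against 15.1% of all tested genes) and 4 rose (19%, near the 17.9% of all), and the median was -0.07. Bmp6, a ligand made by oocytes, had signals of 575, 629.7 and 487 on the pnd2 arrays, against 134, 137 and 101.1 on the gd14 arrays (1.94 ± 0.25), and the receptor Bmpr1b rose by 1.41 ± 0.37. Bmp5 fell (-1.30), the target gene Id3 (-1.44) and the inhibitory Smad6 (-1.37). Among ligands Bmp2 and Bmp5 fell and Bmp6 and Bmp7 rose; the 3 tested probe sets of Bmp5 ran from -1.30 to -0.22.

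Collagens and other matrix genes rose in 19 of 39 tested cases and fell in 1 (median 0.58). Lama2, a laminin chain of basement membranes, had signals of 2485, 2547 and 1976 on the pnd2 arrays, against 328, 304 and 284 on the gd14 arrays (2.81 ± 0.25). Col4a4, a chain of basement membrane collagen, had signals of 1166, 1197 and 1458 on the pnd2 arrays, against 100.7, 135 and 100.8 on the gd14 arrays (3.19 ± 0.27), and Col8a1, a short-chain collagen, 443, 953 and 1856 on the pnd2 arrays, against 40.6, 89.5 and 56.0 on the gd14 arrays (3.40 ± 0.44). Their groups did not overlap, although the pnd2 arrays of Col8a1 spread widely. The more widespread basement membrane genes Col4a1 and Nid1 rose by 1.41 ± 0.20 and 1.36 ± 0.21. Of the 2 tested probe sets of Col4a1 1 was called higher, with changes of 0.55 and 1.41. Among other basement membrane genes Col4a2 rose (1.32), whereas Nid2 (-0.005) and Lamb2 (-0.35) were not called. Col1a1, of fibrillar collagen, was 2947, 2854 and 2052 on the pnd2 arrays, against 2794, 2267 and 1197 on the gd14 arrays and did not pass the test (0.39 ± 0.32, adjusted p = 0.394). Of the 19 genes that rose, 11 had their largest step between gd14 and gd16, against 32% of all genes called higher.

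Hedgehog pathway and stromal genes rose in 6 and fell in 4 of 20 tested cases (median 0.14). Ogn and Dcn, small matrix proteoglycans, rose by 2.58 ± 0.38 and 1.35 ± 0.26. The hedgehog receptor and target Ptch1 had signals of 5118, 4849 and 5042 on the pnd2 arrays, against 2050.2, 2609 and 2767 on the gd14 arrays (1.02 ± 0.15), and the effector Gli2 rose by 0.91 ± 0.16. Lhx9, a LIM homeobox factor of the early gonad and its surface, had signals of 760.1, 785 and 926 on the pnd2 arrays, against 5382, 3485 and 4952 on the gd14 arrays and fell (-2.42 ± 0.20), with its 4 tested probe sets from -2.42 to -0.997. Without pnd2 array 1, 1 gene was called lower in place of 4, and without gd14 array 11, 2.

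Of 9 tested genes of steroid hormone synthesis 2 rose and 1 fell, near the shares of all tested genes, with a median of -0.02 (0.31 when probe sets of a gene were averaged). Hsd3b1, which converts pregnenolone to progesterone, had signals of 919.7, 912 and 2292 on the pnd2 arrays, against 294, 218 and 209.6 on the gd14 arrays (2.25 ± 0.27), and pnd2 array 3 was above the others by a factor of over 2. Hsd17b1, an estradiol-forming enzyme, was called higher (1.08 ± 0.37), a call lost in 6 alternatives. Cyp17a1, of androgen synthesis, was 67.8, 54.2 and 19.4 on the pnd2 arrays, against 148, 82.0 and 98.5 on the gd14 arrays (-0.87 ± 0.42, adjusted p = 0.13), and Star, which brings cholesterol into mitochondria, did not pass the test (-0.44 ± 0.24). Without any of the 6 arrays but pnd2 array 3, 1 gene of the list was called higher in place of 2.

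Red cell genes were lower at pnd2: 8 of 12 tested erythroid genes fell and none rose (median -1.66). Their summed signal was 1997 to 2484 on pnd2 arrays and 40123 to 44405 on gd14 arrays, most of it from Hbb-y at gd14. Hba-x, an embryonic alpha-like globin, had signals of 4.10, 6.90 and 3.31 on the pnd2 arrays, against 389.6, 348 and 530.4 on the gd14 arrays (-3.65 ± 0.28), and Slc4a1, the anion exchanger of red cells, 26.2, 2.83 and 44.2 on the pnd2 arrays, against 484, 1149.7 and 217 on the gd14 arrays (-3.34 ± 0.51). Alas2, of haem synthesis, fell (-2.42). The groups did not overlap in these genes, and the globins of definitive red cells Hbb-bs and Hbb-bt had no probe set annotated to them alone here.

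Markers of other cell types that a whole ovary can hold were counted in the same way, beside shares of 17.9% higher and 15.1% lower among all tested genes. Of 18 tested macrophage and leukocyte genes 3 rose (16.7%) and 1 fell (5.56%), with a summed signal of 4242 to 7027 on pnd2 arrays and 3066 to 5023 on gd14 arrays. Of 19 endothelial genes 2 rose and 1 fell, with sums of 7829 to 12176 on pnd2 arrays and 5596 to 10297 on gd14 arrays. Sums of both lists overlapped between the stages, and without gd14 array 11, 7 endothelial and 6 macrophage genes were called higher. Without pnd2 array 1 or 2 or gd14 array 12, 1 macrophage gene was. Of 12 smooth muscle and pericyte genes 2 rose (1 without pnd2 array 1), with sums of 6571 to 10708 on pnd2 arrays and 6369 to 8716 on gd14 arrays. Of 18 surface epithelium genes 5 rose and 4 fell, with sums of 16944 to 22672 on pnd2 arrays and 19774 to 28743 on gd14 arrays. In that list 3 rose without pnd2 array 1 or any gd14 array and 2 without pnd2 array 2, and 2 fell without pnd2 array 3 or gd14 array 10. Of 13 genes of the mesonephros and nephric duct 2 fell and 1 rose, with sums of 2915 to 4473 on pnd2 arrays and 4561 to 6308 on gd14 arrays, without overlap, and 1 fell without any of the arrays but pnd2 array 3. Of 13 neuronal genes 1 rose and 1 fell. Th, tyrosine hydroxylase, the first enzyme of catecholamine synthesis, was the neuronal list member that rose, with signals of 1445, 1029 and 739.7 on the pnd2 arrays, against 25.2, 40.9 and 49.4 on the gd14 arrays (3.95 ± 0.56), and Hand2, a factor of neural crest and mesenchyme, fell (-2.74). The part of such cells in the other results was not tested.

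Cell cycle genes were counted in a pair of lists. Of 28 tested DNA replication genes 15 fell and 4 rose (median -0.44), and of 31 tested genes of mitosis and the spindle 12 rose and 4 fell (median 0.39). Ccne2, a cyclin of S phase entry, had signals of 1087, 952 and 1459 on the pnd2 arrays, against 5828, 4309.8 and 4950.5 on the gd14 arrays (-2.09 ± 0.21), and Mcm5, of the replicative helicase, 6739, 5516 and 5565 on the pnd2 arrays, against 10486, 10824 and 10060.1 on the gd14 arrays (-0.82 ± 0.12). Ube2c, which marks mitotic cyclins for destruction, had signals of 2566, 1992 and 2439 on the pnd2 arrays, against 374, 520.0 and 510.2 on the gd14 arrays (2.25 ± 0.18), and Prc1, of the central spindle, rose by 1.16 ± 0.16. Top2a, a topoisomerase, and the checkpoint kinase Bub1 were members of the mitosis list that fell (-1.36 and -1.38). The proliferation marker Mki67 was 5048, 5088 and 5118 on the pnd2 arrays, against 5019, 6337 and 5177 on the gd14 arrays and did not pass the test (-0.11 ± 0.14, adjusted p = 0.604). Of the 15 replication genes that fell 10 had their largest step between gd14 and gd16, against 40.9% of all genes called lower, and of the 12 mitotic genes that rose 11 had it between gd18 and pnd2, against 49.3% of all genes called higher. Whether the lists differ was not tested. Without pnd2 array 1, 2 or 3 or gd14 array 10 or 12, or with median scaling, 2 replication genes were called higher in place of 4.

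Among cyclins D and inhibitors of cyclin-dependent kinases, 4 of 12 tested genes rose and 4 fell. Cdkn1c, also called p57, had signals of 2078, 3086 and 2976 on the pnd2 arrays, against 11540.5, 8681 and 8200.4 on the gd14 arrays (-1.80 ± 0.16) and Cdkn1a, also called p21, fell (-1.25). Cdkn1b, also called p27, which keeps follicles dormant, had signals of 1392, 1329.6 and 1306 on the pnd2 arrays, against 876, 799 and 981 on the gd14 arrays (0.59 ± 0.15). Without pnd2 array 2 or gd14 array 12, 2 of the list were called higher in place of 4. In the list of follicle dormancy and PI3K signalling 6 of 16 tested genes rose and 1 fell (median 0.33), among them Foxo3, the forkhead factor that restrains follicle activation, with signals of 5241, 6375 and 3881 on the pnd2 arrays, against 2728, 2268 and 2024 on the gd14 arrays (1.11 ± 0.18), and the receptor Igf1r, which rose by 1.16 ± 0.18 (3 of its 5 tested probe sets were called higher, from -0.19 to 1.17 over all 5). The member that fell was Kitl.

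Imprinted genes of growth control fell in 10 of 19 tested cases and rose in 2 (median -0.66). Igf2, a fetal growth factor, had signals of 2464, 3011 and 2172 on the pnd2 arrays, against 9187, 10208 and 7454 on the gd14 arrays (-1.80 ± 0.18), and Asb4 62.6, 60.8 and 68.4 on the pnd2 arrays, against 421, 718 and 644 on the gd14 arrays (-2.69 ± 0.28). Phlda2, a growth-restricting gene of the placenta, fell (-2.29) and Mest (-1.19). Of the 10 genes that fell, 7 had their largest step after gd18, against 42.9% of all genes called lower. Without pnd2 array 2 or 3 or gd14 array 10 or 12, 1 gene of the list was called higher in place of 2.

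Of 15 tested checkpoint and apoptosis genes 3 rose and 2 fell, near the shares of all tested genes, and the median was -0.09 (0.11 when probe sets were averaged). Beside Trp63, its activating kinase Chek2 had signals of 1038, 904 and 749.7 on the pnd2 arrays, against 536, 523 and 510.3 on the gd14 arrays (0.73 ± 0.15). The DNA damage kinases Atm and Atr moved the other way, Atm with signals of 1473, 1674 and 1142 on the pnd2 arrays, against 5204, 3825 and 4908 on the gd14 arrays (-1.68 ± 0.22) and Atr with a change of -1.21 ± 0.21. Without pnd2 array 3, 4 of the list were called lower in place of 2. Trp53 and Bax had no probe set annotated to them alone here.

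Of 17 tested cadherins, connexins and other junction genes 4 rose and 3 fell, near the shares of all tested genes, and 1 fell without pnd2 array 1 or gd14 array 10 or 11 or with quantile normalization. Cdh1, the E-cadherin of germ cell nests and epithelia, had signals of 397, 541 and 466 on the pnd2 arrays, against 100.2, 119 and 119 on the gd14 arrays (1.79 ± 0.21). Gja1, the main connexin of granulosa cells, was 11135, 14997 and 14285 on the pnd2 arrays, against 15275, 12059 and 12248 on the gd14 arrays and did not pass the test (0.03 ± 0.15, adjusted p = 0.918).

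**Figure D5:**
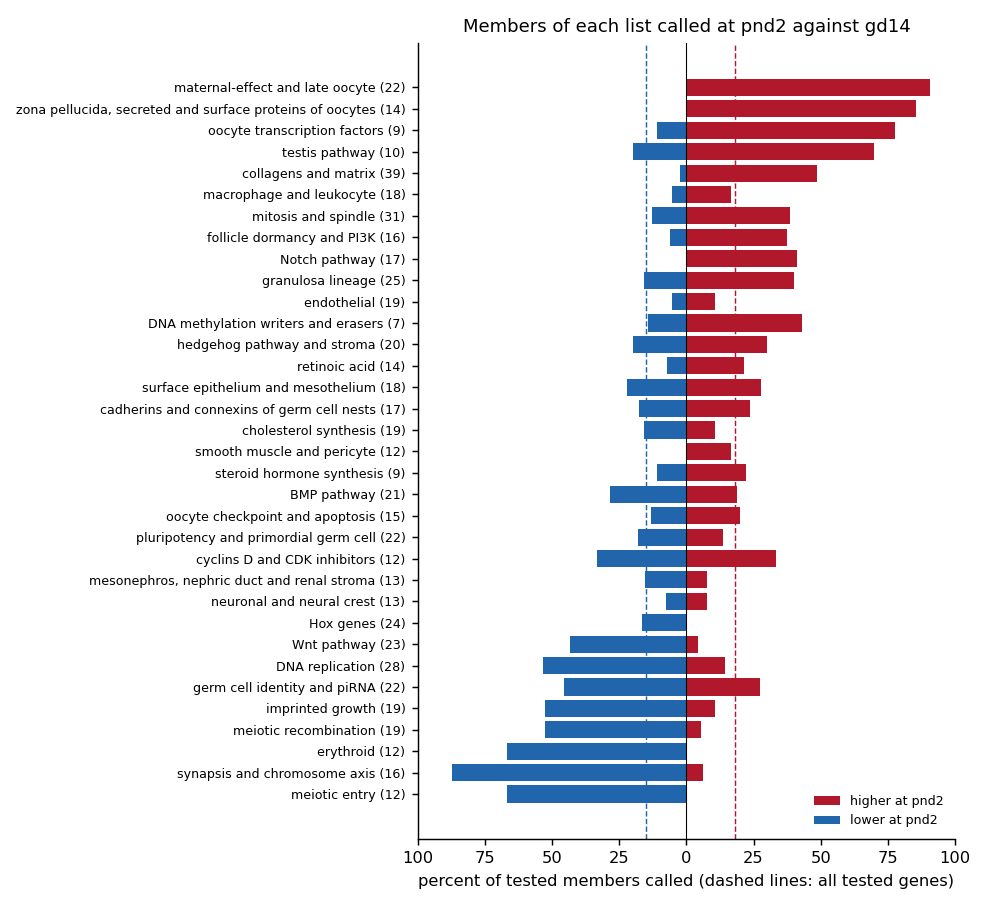
Percent of the tested members of each gene list (number tested in brackets) called higher at pnd2 (red, to the right) or lower (blue, to the left), for lists with over 5 tested members; dashed lines mark the shares of all tested genes, 17.9% higher and 15.1% lower. The oocyte lists stand at the top and the erythroid, synapsis and meiotic entry lists at the bottom.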

How the data were processed

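RNA of 18 whole ovary samples was measured on Affymetrix Mouse430_2 arrays, and the 3 pnd2 and 3 gd14 arrays were compared. The deposited values are signal intensity on a linear scale per probe set, computed in GCOS by the authors, per the submitters' processing notes. In the values themselves every array has one and the same trimmed mean, 500. Neither the version of GCOS nor its settings or treatment of background is known here. Values of the ovary arrays ran from 0.07 to 90180.45 over 45101 probe sets, and columns of samples that could not be mapped numbered 0. An array has no read depth, so precision rests on there being 3 arrays at a stage.

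Values were turned into log2(signal + 31), 31 being the 25th percentile, which understates changes of dim genes. Probe sets with a stage mean above 116.05, the median of all values, in at least 1 stage were tested (26431, of them 22163 annotated to 1 gene, for 12592 genes), and 64 control probe sets were left out. A gene dim at pnd2 or gd14 could enter through the other of these stages, which nearly fixed its direction. A gene was represented by its tested probe set with the highest mean. In the platform annotation 34945 probe sets had 1 gene, 932 several and 9224 none, controls included, and no symbol changed when looked up by gene ID in the RefSeq table of GRCm38.p6.

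The comparison used limma 3.58.1 in R (4.3.3; package data.table, version 1.17.8) on 18 arrays, with a term for each stage, a mean-variance trend and 12 residual degrees of freedom. Tests were two-sided, p-values were adjusted by Benjamini-Hochberg over the 26431 probe sets, and an adjusted p under 0.05 was a call. Nothing in the labels says how RNA samples were batched, and p-values measure the spread between samples. Promoter letters were searched and figures drawn in Python 3.11.15 with pandas 2.3.3 and matplotlib 3.10.9.

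Named genes were the 12 largest rises and falls with arrays that did not overlap, up to 5 called members per list and direction, a marker panel, and list members that did not pass, given by value. Ythdc2, Tle6, Khdc3, Zar1, Bcl2l10, Col4a1, Nid1 and Gli2 were added for their roles after their values were seen. The members and lists were chosen with earlier results of these data known. The procedure was tested on 26431 simulated probe sets: of 100 changed by 1 on the log2 scale 61 were recovered and of 100 changed by 2, 96, with 11 false calls among 168. In the simulation 200 probe sets changed, against 7889 called in the data, and the noise was independent between probe sets. Its rates therefore need not hold for this comparison. Alternatives were other pseudocounts, scalings and filters (one at 507.26, the 75th percentile), other fits, an added 2-fold threshold, the mean of all probe sets and leaving out each array.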

Additional observations from a re-analysis of the deposited data

How the results depend on the processing

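The call counts stayed within 1.5 times those reported, 7889 probe sets and 4153 genes, under a pseudocount of 8 or at the median, quantile normalization, array quality weights, median scaling, no filter, a fit without the other stages or without the mean-variance trend, the mean of all probe sets (genes) and without gd16 sample 7. In the last of these, gd16 sample 7 was left out of the estimate of the spread. The gd16 means and the counts of largest steps above still include it. A stricter filter (75th percentile), under which fewer probe sets enter, left 2551 probe sets higher. With an added threshold of 2-fold, 611 probe sets (431 higher, 180 lower) and 413 genes (297 higher, 116 lower, 3.28% of those tested) were called. Leaving out each of the 6 arrays gave 6145 to 6951 probe sets (3084 to 3344 higher, 3061 to 3607 lower) and 3294 to 3623 genes (1765 to 1982 higher, 1483 to 1649 lower). Median scaling gave 1987 higher and 2050 lower genes, 49.2% higher against 54.2%, and moved the median of all genes to -0.03. Of 205 named genes called, 150 kept their call under every alternative except the 2-fold threshold and 85 under that too. With the mean of all probe sets Lss changed by 0.060 and Rbl1 by 0.058, both reversed and not called; the cause was not tested, but their probe sets ran from -0.68 to 0.80 and from -0.45 to 0.59. No paired analysis was possible because nothing in the labels links a pnd2 sample to a gd14 sample. Sample numbers run on through the whole series. The number of arrays, 3 at a stage, limits the precision, no detection call was given, and signals near 31 were not told from background here.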

Other observations

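Other lists gave the following counts, beside shares of 17.9% higher and 15.1% lower among all tested genes. Of 14 tested genes of retinoic acid metabolism and signalling 3 were higher and 1 lower (median 0.13), and without gd14 array 12, 1 was higher; with quantile normalization or median scaling 2 were lower. Crabp2, a cytoplasmic carrier of retinoic acid, had signals of 67.2, 33.7 and 13.4 on the pnd2 arrays, against 449, 569 and 438 on the gd14 arrays (-2.97 ± 0.38), and Aldh1a1, a retinoic acid forming enzyme, 11649, 11164 and 12891 on the pnd2 arrays, against 6566, 5599 and 7012 on the gd14 arrays (0.90 ± 0.22). Of 19 tested genes of cholesterol synthesis 3 were lower and 2 higher (median 0.03, and -0.02 with median scaling), Idi1, an isomerase of the pathway, with a change of -1.44 ± 0.25 and Fdft1, squalene synthase, with 1.97 ± 0.17. Without pnd2 array 1 or 3 or gd14 array 10 or 11, 1 cholesterol gene was lower. Of 24 tested Hox genes 4 were lower (16.7%, near the share of all tested genes) and none higher (median -0.32), Hoxa5 with signals of 288, 323 and 258 on the pnd2 arrays, against 713, 800.3 and 513 on the gd14 arrays, and without gd14 array 10, 2 were lower. Of 7 tested writers and erasers of DNA methylation 3 were higher and 1 lower (median 0.27), with Uhrf1, which guides Dnmt1, at 1.21 ± 0.25.

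Of 10 tested genes listed for the testis pathway 7 were higher and 2 lower (median 0.85), and without pnd2 array 3 or gd14 array 12, 4 were higher. Without gd14 array 10, 11 or 12 or pnd2 array 1 or 3, 1 was lower. Dmrt1, a DM-domain factor that fetal germ cells of the mouse ovary also express, had signals of 5.05, 33.4 and 30.8 on the pnd2 arrays, against 306, 647 and 779 on the gd14 arrays (-3.44 ± 0.34). Gdnf, a growth factor, had signals of 168, 205 and 108 on the pnd2 arrays, against 3.39, 26.5 and 10.2 on the gd14 arrays (2.11 ± 0.52), and Ptgds, a prostaglandin synthase, 541, 423 and 362 on the pnd2 arrays, against 66.4, 75.6 and 98.9 on the gd14 arrays (2.08 ± 0.38). The pnd2 arrays did not overlap the gd14 arrays in any of these. Sox9 was the other member called lower (-1.01), a call lost in 10 of the alternatives. Its 2 tested probe sets ran from -1.01 to 0.55.

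A larger share of X-linked than of autosomal genes was called lower: 110 of 446 tested X-linked genes (24.7%) were lower and 80 (17.9%) higher, with a median of -0.13, against 1788 (14.8%) lower and 2163 (17.9%) higher of 12102 autosomal genes, with a median of 0.02. This difference was not tested.

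The arrays within a stage had an order that many germ cell genes shared. Of the 39 oocyte genes that rose, pnd2 array 1 was the highest of its stage in 31 and pnd2 array 3 the lowest in 27. Of the 31 meiotic genes that fell, pnd2 array 3 was the highest of its stage in 18, and gd14 array 10 was the highest of the gd14 arrays in 22 and gd14 array 11 the lowest in 20. The order was not confined to these lists: pnd2 array 1 was the highest of its stage in 10 of the 12 mitosis and spindle genes that rose. Among the 19 collagen and matrix genes that rose it was the highest in 3. Genes of 1 array are not independent, and the order was described after the values were seen.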
